A study of Brassica napus with 6 samples.

Results

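The miRNAs miR161, miR400 and miR5654 were examined in pistils and young siliques, the seed pods, of rapeseed (Brassica napus), a plant whose genome joins an A and a C subgenome. They were taken by family number, which gave 3 of the 69 known miRNAs in the count tables (bna-miR161, ath-miR400 and bra-miR5654a). In the degradome tables, the same family numbers gave 32 of the 382 entries of known miRNAs in the short-silique line and 0 of 95 in the long-silique line. The lines are backcross progeny with long siliques (LS) and with short siliques (SS) from a single cross, 8008 × 4942, grown in the field without a treatment. Tissue of both lines covered days 0 to 7 after pollination, and each stage came from some 12 plants. There were 2 small RNA libraries per line and 1 degradome library per line, so each library mixes stages and plants, and degradome values have no replicate check. The labels name the lines by their siliques and give no further genotype or allele.

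A plant miRNA guides an ARGONAUTE protein to a nearly complementary stretch of an mRNA, which is then cut opposite the middle of the miRNA. A degradome library records the 5′ ends of such cut mRNAs. In Arabidopsis thaliana, miR161 and miR400 act on mRNAs of pentatricopeptide repeat (PPR) proteins, a large family of RNA-binding proteins that work in mitochondria and chloroplasts, and PPR mRNAs cut in this way can give rise to secondary siRNAs. miR5654 is less well studied and is described beside them. None of the 30 target identifiers found here matched the gene table used (RefSeq, assembly Da-Ae), so no target carries a gene name, and whether these targets encode PPR proteins was not examined.

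The mature sequences are shown first because the target sites are read against them. They stand in the degradome tables in DNA letters and are printed 5′ to 3′, with the seed (bases 2 to 8) in capitals.
bna-miR161: tCAATGCActgaaagtgacta
bra-miR400-5p: tATGAGAGtattataagtcac
bra-miR5654b: aTAAATCCcaagcatcatcca
All 3 are 21 nt long, and no seed is shared between them. Only bna-miR161 carries the same name in the count tables and in the degradome table. The degradome entries of the other families are named bra-miR400-5p and bra-miR5654b, whereas the counted miRNAs are ath-miR400 and bra-miR5654a, so for these families levels and targets may belong to different members.

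All 32 entries came from the SS degradome. bna-miR161 had 13 entries, bra-miR5654b had 12 and bra-miR400-5p had 7, which together made 8.38% of the 382 entries of known miRNAs in that library. The absence from the LS table cannot be read as a difference between the lines. The LS table as used here stops inside an entry at target BnaA09g07450D, both tables list their targets in ascending order, and 31 of the 32 entries lie on targets after that point. Over the range that both tables cover, SS held 1 entry of these families among 128 of known miRNAs and LS held 0 among 95. That entry was the bna-miR161 site of BnaA06g11340D at position 1497, in category 4.

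The authors' tables give each entry a category from 0 to 4, an alignment score and a p-value. In the scheme commonly used for degradome data, category 0 stands for the strongest peak of cut ends on an mRNA and category 4 for the weakest support. The rule behind these tables was not stated in the sources used here, and the tables used here hold no read numbers at the sites. In the authors' deposited table the families differed in category. bra-miR5654b had 11 of 12 entries in category 0 and the other in category 1. bra-miR400-5p had 2 of 7 in category 0 and 5 in category 1. bna-miR161 had 4 of 13 in category 0, 7 in category 2 and 2 in category 4. Among the 13 other known families with at least 5 entries, the share in category 0 ran from 50% to 100%, and 7 of them had all entries there. Pooled over the 350 entries of the other known families it was 71.4%, a value set largely by miR156, which held 80 of the 100 entries outside category 0. Over the 3 families together it was 53.1%, with 91.7% for miR5654, 30.8% for miR161 and 28.6% for miR400. With 1 library and with sites that share a miRNA and often a site sequence, these shares are descriptions and were not tested.

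**Figure D1:**
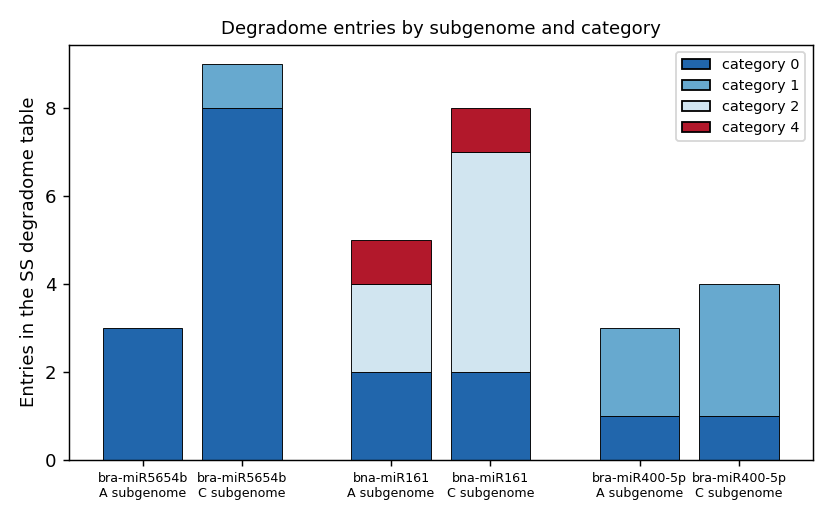
Entries of the SS degradome table (y axis, number of entries) by miRNA and by subgenome of the target (x axis), with bars divided by category. bra-miR5654b is nearly all category 0 and has 9 of 12 entries on C targets, while bna-miR161 is spread over categories 0, 2 and 4.

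The sites of bra-miR5654b were almost uniform. Its 12 entries held 4 distinct site sequences, printed 5′ to 3′ with the bases that do not form a Watson-Crick pair with the miRNA in capitals.
bra-miR5654b site on 8 targets: tCgatgatgcttgggatCtat
bra-miR5654b site on BnaA09g47950D and BnaC08g40900D: tAgatgatgcttgggatCtat
bra-miR5654b site on BnaC08g40970D: tCgatgaAgcttgggatCtat
bra-miR5654b site on BnaC08g15670D: tggaCgatgcttgggatCtat
The commonest site lay on 2 A and 6 C targets, and all 8 entries were in category 0. Without read numbers at the sites, whether entries with an identical site rest on separate reads could not be examined. Base 4 of the miRNA, counted from its 5′ end, was mismatched in 12 of 12 sites, and base 20 in 11 of 12. The exception at base 20 was BnaC08g15670D, which was mismatched at base 17 and was also the entry in category 1. Every other base was paired in all 12 sites, apart from base 14 in BnaC08g40970D. The alignment score, in which a higher value means poorer pairing, was 2 for 11 entries and 3 for BnaC08g40970D. The authors' p-value was 0 as printed for 9 entries and 0.008 for the other 3.

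The sites of bna-miR161 were the most varied, with 9 distinct sequences over 13 targets. Shown are 6 of them, with capitals as before. The 3 not shown lay on BnaC01g16290D, BnaC03g75880D and BnaC07g41330D, each with a score of 4.5 and in category 2. A target base may also be missing opposite the miRNA, which leaves the site a base shorter.
bna-miR161 site on BnaA09g46890D and BnaC08g40910D, category 0 in both: tCgtcactttcagtgTGttga
bna-miR161 site on BnaA09g46700D, category 0: tTgtcactttcagtgcTttga
bna-miR161 site on BnaC08g41200D (category 0) and on BnaA09g47120D and BnaC08g40970D (category 2 in both): tTgtcactttcaAtgcTttga
bna-miR161 site on BnaA09g46030D, category 2: tCgtcactttcaAtgcGttga
bna-miR161 site on BnaA06g11340D and BnaC05g12880D, category 4 in both: tagtcCctttcatgcGttga
bna-miR161 site on BnaC03g59970D, category 2: taAtcacttCcagtgcCtGga
Base 5 of bna-miR161 formed a Watson-Crick pair in 2 of 13 sites, with a mismatch in 6 and a G:U pair in 5. Base 20 was paired in 4 of 13. Base 9, next to the middle of the miRNA, was paired in 6 sites, mismatched in 4 and had no target base opposite it in 3. Of the 6 sites paired at base 9, 3 were in category 0 and 3 in category 2. Among these 6, the sites in category 0 had a score of 2 and those in category 2 a score of 4 or 4.5. Their category thus also went with the pairing of the whole site. Of the 4 with a mismatch at base 9, 1 was in category 0 and 3 in category 2. Of the 3 that lacked the target base, 1 was in category 2 and 2 were in category 4. The site sequence alone did not fix the category, since BnaC08g41200D shares its site with a pair of targets in category 2. Scores ran from 2 to 4.5, and the largest p-value in the authors' deposited table was 0.03, shared by all 7 entries in category 2. Both entries in category 4 had a smaller authors' p-value, 0.002. These p-values thus did not follow the common order of the categories.

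The sites of bra-miR400-5p held 4 distinct sequences over 7 targets. They are shown because 3 of them recur exactly on an A and on a C target.
bra-miR400-5p site on BnaA09g49860D and BnaC08g44830D: gtgacttataatactctcatT
bra-miR400-5p site on BnaA09g12140D and BnaC09g12100D: gtgacGtataatactctcata
bra-miR400-5p site on BnaA09g12850D and BnaCnng50520D: gtgaGttataatactctTatT
bra-miR400-5p site on BnaC07g31330D: gtgGTtAatGatattcata
The first site departed from full pairing only at base 1 of the miRNA, and the second only at base 16. These 4 entries had a score of 1, the lowest of the 3 families. Of these 4, BnaA09g49860D and BnaC09g12100D were in category 0 and their partners BnaC08g44830D and BnaA09g12140D in category 1. The third pair had a score of 2.5 and category 1 in both. BnaC07g31330D had the poorest pairing of the family, with 6 of 21 bases unpaired or in a G:U pair and a score of 4.5.

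**Figure D2:**
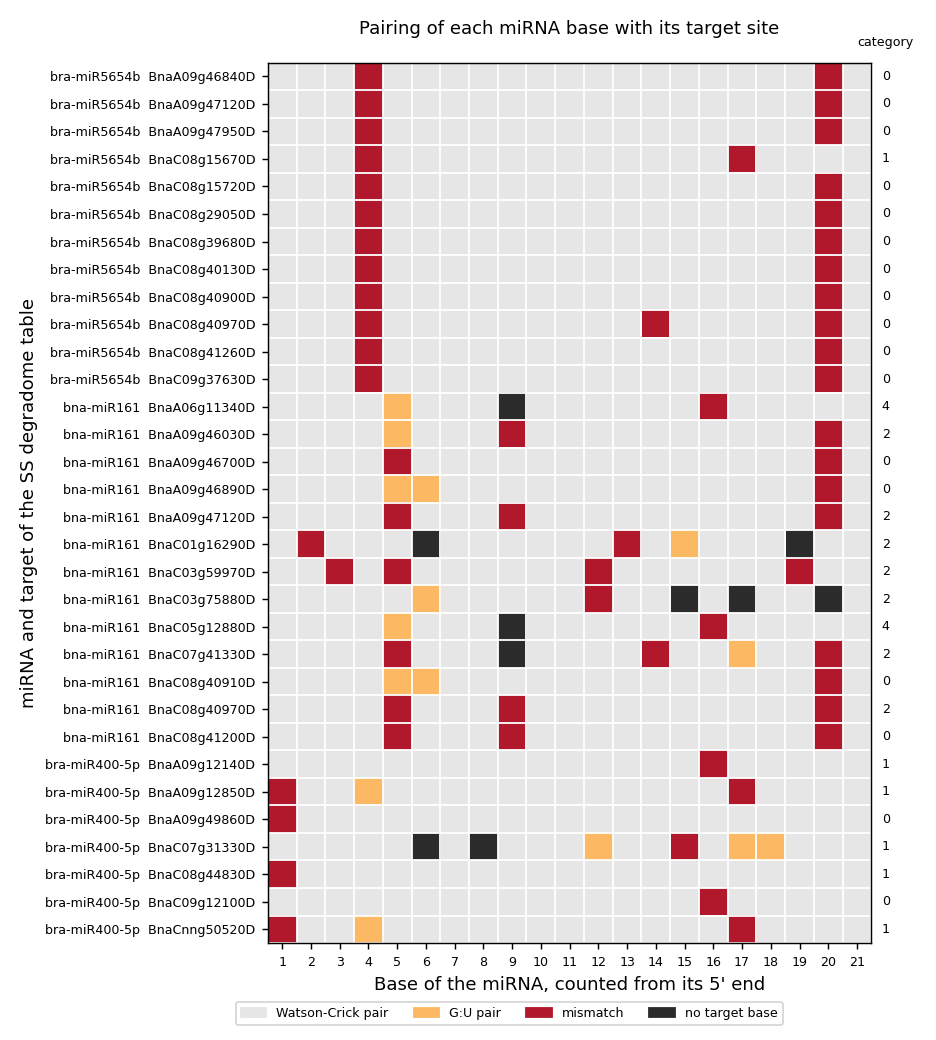
Pairing of each base of the miRNA (x axis, base counted from the 5′ end) with the target site in each of the 32 SS entries (y axis), with the authors' category on the right. The mismatch at base 4 runs through all 12 bra-miR5654b sites, the bna-miR161 sites vary at bases 5, 9 and 20, and bases 10 and 11 are paired everywhere.

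Bases 10 and 11, between which plant miRNAs direct cutting, were paired in all 32 sites. They were also paired in all 350 entries of the other known families, so this may be a condition of the authors' search and is not a feature of these families.

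The letter A or C in a target's identifier gives its subgenome. Of the 30 targets, 10 carried an A identifier and 20 a C identifier. By entry, 65.6% were on C for the 3 families, with 75.0% for miR5654, 61.5% for miR161 and 57.1% for miR400, beside 52.9% for the other known families. Among the other families with at least 5 entries, this share ran from 33.3% for miR166 to 77.8% for miR6030. Each of the 3 families lay within that range. An identical site on the other subgenome was common. Of the 11 entries on A targets, 9 (81.8%) had the same site sequence for the same miRNA on a C target, and of the 21 entries on C targets 14 (66.7%) had it on an A target. For the other known families these shares were 77.6% and 71.9%. The A entries without a C counterpart were the bna-miR161 sites of BnaA09g46030D and BnaA09g46700D.

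Many of the targets had identifiers in the same stretch of A09 or of C08, though most of these were not adjacent in number. The limits of the blocks were set after the targets were seen. Whether targets of the other known families lie as close together was not tested. The block from BnaA09g46030D to BnaA09g47950D held 7 entries on 6 targets, and the block from BnaC08g39680D to BnaC08g41260D held 8 entries on 7 targets. All of these entries belonged to bna-miR161 and bra-miR5654b, and no bra-miR400-5p entry lay in either block. The only targets listed for more than 1 of the 3 miRNAs came from these blocks. BnaA09g47120D had a bna-miR161 entry at position 975 and a bra-miR5654b entry at position 1428, which is 453 nt further on. On BnaC08g40970D the bra-miR5654b entry lay at 1398, 573 nt beyond that of bna-miR161. In both, the bna-miR161 entry was in category 2 and the bra-miR5654b entry in category 0. No other known or predicted miRNA had an entry on any of the 30 targets. How often targets of the other known families carry entries of more than 1 family was not counted. Neither the sharing nor its absence is therefore read as particular to these targets.

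The positions of the sites kept to a step of 3 nt. Divided by 3, the position left a remainder of 0 in 12 of 12 bra-miR5654b entries and in 11 of 13 bna-miR161 entries, and a remainder of 2 in 7 of 7 bra-miR400-5p entries. The exceptions were the bna-miR161 entries of BnaC01g16290D at 1132 and BnaC07g41330D at 2402, both with a score of 4.5. Other entries with that score kept the remainder of their family. They were BnaC03g75880D at 993 for bna-miR161 and BnaC07g31330D at 662 for bra-miR400-5p. Pooled, the 3 families had 23, 1 and 8 entries at remainders of 0, 1 and 2. The other known families together were more evenly spread, with 165, 79 and 106 entries. Within families the pattern was common, however, since 10 of the same 13 other families had over 90% of their entries at a single remainder. For bna-miR161 this share was 84.6%. Whether positions are counted from the first base of a codon was not stated in the sources used here.

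The levels of the miRNAs were compared in the 4 small RNA libraries, whose totals ran from 6046506 to 6739286 reads. The share of known miRNAs in these reads was 4.82% in both LS libraries and 6.51% and 6.50% in SS libraries 1 and 2. A chi-square test of the 52 tested miRNAs against the library totals found no more than sampling noise between LS library 1 and LS library 2 (1.005 per degree of freedom, p = 0.464). The LS libraries were therefore counted as 1 sample, with a 95% Poisson interval in place of an SD. The same chi-square test over these 52 miRNAs found more than that noise in SS (1.61 per degree of freedom, p = 0.00353). A binomial test of each miRNA between the SS libraries gave p = 0.000625 for ath-miR400, 0.0196 for bra-miR5654a and 0.908 for bna-miR161. The excess in SS thus includes miRNAs described here. Since the spread between libraries may be technical, the p-values of the line difference speak for these libraries only. Levels are in reads per 1000000 reads of the library total (RPM), and intervals cover counting error only. Small RNA libraries measure relative amounts, so a change in the number of cells of a type and a change in the miRNA per cell cannot be told apart.

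bra-miR5654a was by far the most abundant of the 3. LS library 1 held 765 reads of it and LS library 2 held 824, beside 1103 and 1286 in the SS libraries. This corresponded to 119 and 122 RPM in LS, with a mean of 121 RPM (counting interval 115 to 127), and to 182 and 201 RPM in SS, with a mean of 192 ± 13.0 RPM (SD, n = 2). Both SS libraries stood above both LS libraries, 1.59-fold in RPM. It ranked 15 among the 52 tested miRNAs by mean level. ath-miR156a-5p and ptc-miR167f-5p stood next above it and bra-miR9553-5p and bna-miR167d next below, each with a range over the libraries that overlapped that of bra-miR5654a.

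bna-miR161 was a low-level miRNA with nearly the same reads in every library. It had 35 and 31 reads in LS and 35 and 39 in SS. The level was 5.46 and 4.60 RPM in LS, with a mean of 5.03 RPM (counting interval 3.88 to 6.39), and 5.79 and 6.09 RPM in SS, with a mean of 5.94 ± 0.214 RPM (SD, n = 2). The SS libraries stood above the LS libraries, but by less than the counting interval of LS. Its rank was 38 of 52, between bna-miR6033 and ath-miR160a-5p above and ath-miR169b-5p and bna-miR169m below, whose ranges all overlapped its own.

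ath-miR400 was the lowest and the least steady. It had 19 and 13 reads in LS and 11 and 36 in SS. The level was 2.96 and 1.93 RPM in LS, with a mean of 2.45 RPM (counting interval 1.66 to 3.44). In SS library 1 it was 1.82 RPM (counting interval 0.908 to 3.26) and in SS library 2 it was 5.62 RPM (3.94 to 7.78), so that SS library 1 lay under both LS libraries and SS library 2 above both. The SS mean was 3.72 ± 2.69 RPM (SD, n = 2). Its rank was 43 of 52, with bra-miR2111b-3p and ath-miR399b next above and bna-miR2111b-3p and aly-miR408-5p next below, again with overlapping ranges.

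**Figure D3:**
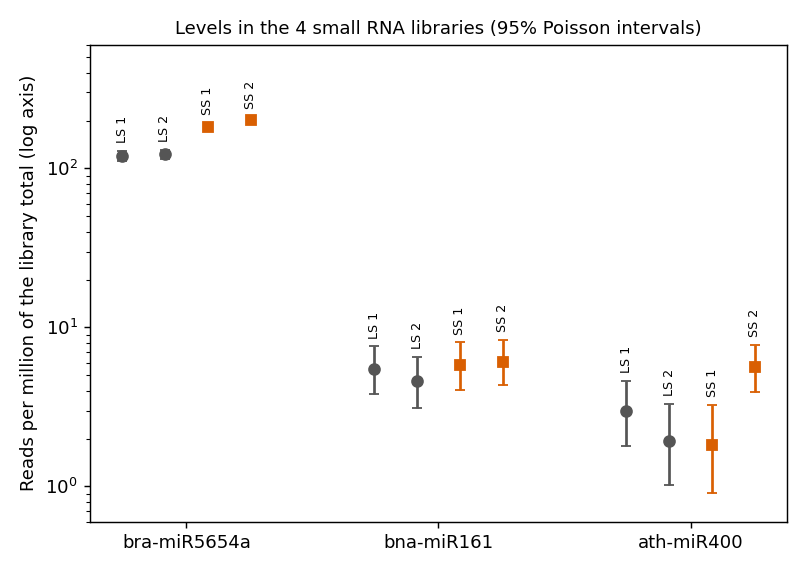
Level of each miRNA in the 4 small RNA libraries (y axis, RPM on a log scale), with LS as circles, SS as squares and 95% Poisson intervals as bars. The LS and SS libraries of bra-miR5654a are apart, those of bna-miR161 have overlapping intervals, and the SS libraries of ath-miR400 stand at 1.82 and 5.62 RPM, on either side of LS.

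Of the 3, only bra-miR5654a was called higher in SS by the quasi-likelihood test of edgeR, fitted with TMM scaling over all 52 tested miRNAs. Its log2 fold change of SS over LS was 0.37 ± 0.04 (SE, edgeR adjusted p = 7.48e-14), and 0.36 ± 0.05 with the LS libraries summed into 1 sample (edgeR adjusted p = 5.42e-08). bna-miR161 was at -0.05 ± 0.27 (edgeR adjusted p = 0.881) and ath-miR400 at 0.33 ± 0.36 (edgeR adjusted p = 0.483), and neither passed. The estimate for ath-miR400 was near that for bra-miR5654a, with a far larger error. In all edgeR fits here, the SE is the absolute log2 fold change over the square root of the quasi-likelihood F statistic. It is not a fitted standard error and may be too small. DESeq2 gave 0.26 ± 0.09 for bra-miR5654a (DESeq2 adjusted p = 0.00545), -0.16 ± 0.42 for bna-miR161 and 0.23 ± 0.63 for ath-miR400. By the edgeR fit, 1 of 3 was called higher and 0 of 3 lower, where 34.6% of the tested miRNAs were called higher and 17.3% lower (51.9% in all). With the LS libraries summed it was again 1 of 3 higher, beside 30.8%. The share of calls among the 3 was therefore near the background. Their median log2 fold change was 0.33, beside 0.12 over all 52. That median is the value of ath-miR400 itself, which was at -0.71 without SS library 2.

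The scaling set the size of these differences. With the authors' library totals, which raised the median of all tested miRNAs to 0.41, bra-miR5654a was at 0.67 ± 0.04 and again the 1 of 3 called higher, beside 63.5% of all tested. On that scale bna-miR161 was at 0.24 ± 0.27 (edgeR adjusted p = 0.417), above 0 in place of below it. With no factor bra-miR5654a was at 0.24 ± 0.04. In RPM, both SS libraries lay above both LS libraries for 2 of the 3, which is read against 80.8% of the tested miRNAs, and none of the 3 had both SS libraries below, beside 7.69%.

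SS library 1 and SS library 2 decided the value of ath-miR400. Without SS library 1 its log2 fold change was 0.94 ± 0.39 and passed the test (edgeR adjusted p = 0.0399), so that 2 of 3 were then higher, beside 34.6% of the tested. Without SS library 2 it was -0.71 ± 0.60 (edgeR adjusted p = 0.375). In the authors' deposited table, which compares 1 library with 1 library, ath-miR400 had a log2 fold change of -0.70 with a p-value of 0.201 in the pair numbered 1 and of 1.54 with a p-value of 0.000487 in the pair numbered 2. It was marked as changed in the second pair, as 1 of the 3 there and 0 of 3 in the first, beside 20.3% of all known miRNAs in each. bra-miR5654a was at 0.61 and 0.72 in the authors' deposited table, without a mark in either pair. Its p-values there were smaller than those of ath-miR400 in both pairs. In the pair numbered 1, ath-miR156a-5p at 0.97 was unmarked, while ath-miR169b-5p at 1.02 was marked with a larger p-value. A missing mark therefore need not mean a larger p-value. In both pairs, every marked miRNA had an absolute log2 fold change above 1 and an authors' p-value under 0.05. bra-miR5654a was below 1 in both.

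**Figure D4:**
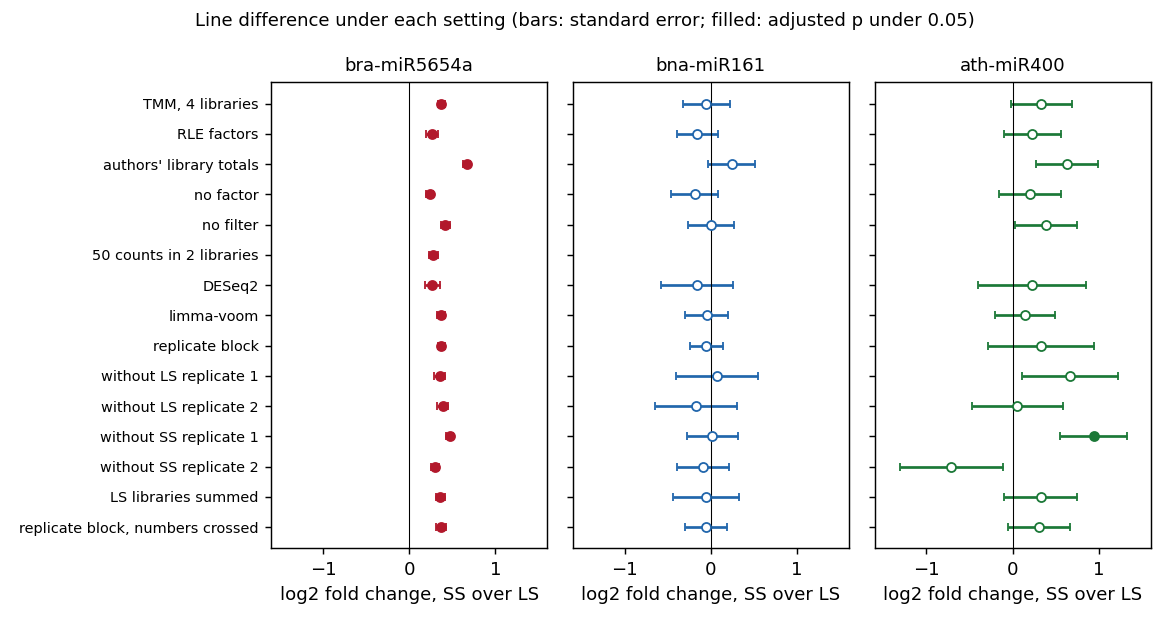
log2 fold change of SS over LS (x axis) of each miRNA under each setting (y axis), with standard errors as bars and filled points where the adjusted p was under 0.05. For the edgeR fits the bars are derived from the F statistic. bra-miR5654a is filled and above 0 in every setting, bna-miR161 lies on both sides of 0 and is never filled, and ath-miR400 runs from -0.71 without SS library 2 to 0.94 without SS library 1.

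**Figure D5:**
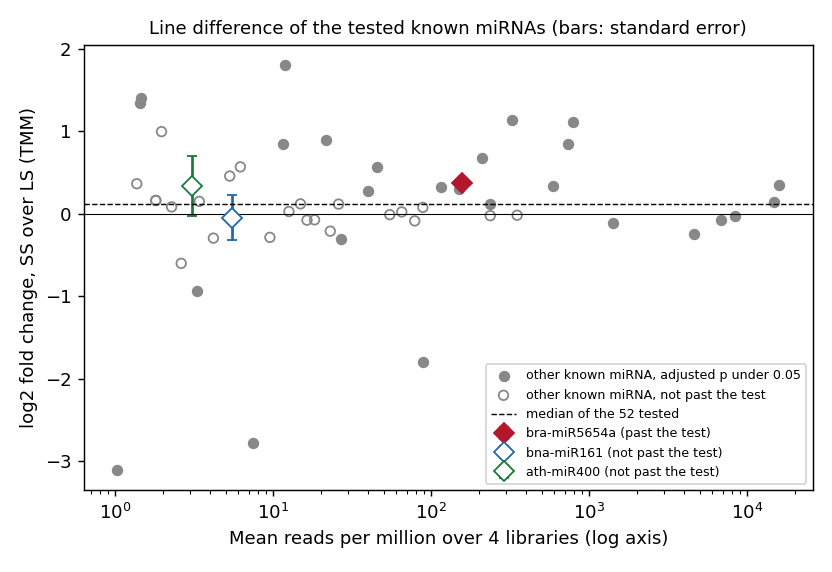
log2 fold change of SS over LS on the TMM scale (y axis) against mean RPM (x axis, log scale) for the 52 tested miRNAs. Bars for the 3 described here are errors derived from the F statistic. bra-miR5654a lies at 0.37 with an error of 0.04, while bna-miR161 at -0.05 and ath-miR400 at 0.33 have errors of 0.27 and 0.36.

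A ratio of reads within a library does not depend on the scaling. bra-miR5654a had 21.9 reads per read of bna-miR161 in LS library 1 (exact binomial interval 15.6 to 31.6) and 26.6 in LS library 2 (18.6 to 39.4). In the SS libraries it had 31.5 (22.5 to 45.5) and 33.0 (24.0 to 46.6). The SS ratios were above the LS ratios, 1.34-fold on the mean of the log2 ratios, but the intervals of all 4 libraries overlapped. The exact permutation test over libraries gave p = 0.333, two-sided, which is the smallest p that 2 against 2 libraries allow. It took the LS libraries as separate samples, although they were counted as 1 for the levels, so it gives no evidence of a difference. bra-miR5654a made 93.4% to 96.0% of the reads of the 3 miRNAs in every library.

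The miRNAs with the most similar profile over the 4 libraries were found by the Euclidean distance of centred log2(RPM + 1) values among the other 51 tested miRNAs. For bra-miR5654a they were bra-miR9553-5p at a distance of 0.105, smo-miR156c at 0.106 and ath-miR390a-5p at 0.112, where the median of all was 0.465. For bna-miR161 they were bol-miR9408, ath-miR403-3p and ath-miR172a at 0.123 to 0.140, with a median of 0.426. ath-miR400 had no close match, with ath-miR171b-5p nearest at 0.746 and a median of 0.997. With 4 libraries that share depth and scaling, these distances are descriptions.

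Other miRNA families linked to secondary siRNAs or to the silencing machinery give the setting of the 3 families. They were taken by family number, whichever arm was counted. A listed arm, such as ath-miR393b-3p or bra-miR158-5p, need not itself act in this way. Of 12 miRNAs with a listed family number in the count tables, 8 had enough reads, and 2 were higher in SS, 2 lower and 4 not past the test. Over all 52 tested miRNAs, 34.6% were higher and 17.3% lower. The median log2 fold change was 0.07 for the 8 and 0.12 for all 52. The higher ones were ath-miR390a-5p, which starts the tasiRNAs that act on auxin response factors, at 0.33 ± 0.04 (edgeR adjusted p = 5.89e-15), and ath-miR391-5p at 0.56 ± 0.08 (edgeR adjusted p = 3.85e-10). The lower ones were nta-miR168a, which acts on ARGONAUTE mRNA, and bra-miR158-5p, at -0.25 and -0.08 on the TMM scale. These 2 were above 0 with the authors' library totals, at 0.05 and 0.22, where 7 of the 8 were called higher and none lower, beside 63.5% of all tested miRNAs called higher on that scale.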

How the data were processed

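Small RNAs of 18 to 30 nt and degradome tags were sequenced by the authors. The deposited counts are whole reads per known miRNA, per the file headers, beside library totals. The deposited RPM values equal the count over the total times 1000000, with 0.01 written for a count of 0. The authors' log2 fold changes and p-values compare 1 library with 1 library, per the file headers. The deposited degradome tables give a score, a category and a p-value per entry. The sources used here name no aligner, miRNA database, target search or genome build.

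Computed here were edgeR 4.0.16 fits (R 4.3.3, quasi-likelihood, TMM, two-sided, Benjamini-Hochberg) of the miRNAs that reached 10 counts in at least 2 libraries, 52 of 69, with all 3 members among them. Alternatives were RLE, library totals, no factor, no filter, a filter of 50, DESeq2 1.42.0, limma-voom 3.58.1, a replicate block and each library left out. Site pairing was read letter by letter from the degradome alignments. Named are all entries of the 3 families by count, the 3 nearest profiles, the 2 neighbours in level on each side, and a list of miRNAs from siRNA-linked families, taken by family number. The members, lists and tests were chosen with earlier results of these data known. The count tables of predicted miRNAs were not used here, and degradome entries of predicted miRNAs were read only to see whether they share targets with the 3 families.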

Additional observations from a re-analysis of the deposited data

How the results depend on the processing

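The rise of bra-miR5654a in SS held its direction and its call in all 14 alternatives, at 0.24 to 0.67 on the log2 scale, and at 0.30 to 0.47 when each library was left out in turn. bna-miR161 passed in none of the 13 that tested it and was at 0.24 with the authors' library totals and between -0.17 and 0.070 when a library was left out. It was above 0 without LS library 1 (0.070) and without SS library 1 (0.017). ath-miR400 ran from -0.71 to 0.94 when a library was left out, and the call without SS library 1 was its only one. The cause was not tested. At 50 counts in 2 libraries, bna-miR161 and ath-miR400 had too few reads to be tested. The log2 ratio of bra-miR5654a to bna-miR161, at 0.42, stayed between 0.28 and 0.56 when a library was left out. The count of SS degradome entries fell from 32 to 1 up to the last LS target, because nearly all targets lie beyond it, was 30 in categories 0 to 2 and stayed 32 at a p-value of 0.05 or less.

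The 27 calls among 52 miRNAs (18 higher, 9 lower) became 20 to 36 in the alternatives, with 33 higher and 3 lower by the authors' library totals, 14 and 11 with RLE factors or a filter of 50 counts, and 15 and 13 with no factor. Blocked on the replicate number, bra-miR5654a was at 0.37 (edgeR adjusted p = 0.00457), bna-miR161 at -0.05, ath-miR400 at 0.33, and 23 miRNAs were called. Same-numbered libraries did not deviate together (correlation of -0.23 over 52 miRNAs), and with the numbers crossed, chosen after the data were seen, 25 were called. Counts of 11 to 39 reads limit what can be said of bna-miR161 and ath-miR400.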
